A study of Mus musculus with 12 samples.

Results

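Toll-like receptors and inflammatory mediators of innate immunity were followed through vitamin B12 supplementation and the induction of reprogramming in cultured mouse embryonic fibroblasts (MEFs). The set was a list of 10 genes given by symbol, namely the receptors Tlr2, Tlr4, Tlr7 and Tlr13, the co-receptor Cd14, the cytokines Il1b and Tnf, the antagonist Il1rn, the inflammasome sensor Nlrp3 and the cytokine receptor chain Il10ra. Each symbol matched 1 of the 55573 genes counted, so 10 of 10 were found. All are protein-coding. On GRCm38 they lie at chr3:83836272-83841767 (Tlr2), chr4:66827584-66930284 (Tlr4), chrX:167304929-167330558 (Tlr7), chrX:106143204-106160493 (Tlr13), chr2:129364570-129371139 (Il1b), chr2:24336853-24351494 (Il1rn), chr17:35199381-35202007 (Tnf), chr11:59541568-59566956 (Nlrp3) and chr9:45253837-45269149 (Il10ra), with Cd14 on chromosome 18.

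The cells came from C57BL/6 embryos (E13.5) and carried a doxycycline-inducible cassette of Oct4, Sox2, Klf4 and Myc (OSKM), the factors that can turn fibroblasts into induced pluripotent stem cells. Cells of 3 embryos, called clones 1, 2 and 3, were kept for 72 h in pluripotent stem cell medium in each of 4 groups: MEF (no doxycycline, no added B12), MEF with B12 at 2 µM, OSKM (doxycycline throughout, at 1 µg/mL by the labels and 1 mg/mL by the study's methods) and OSKM with both. Every library carried the cassette, and no cells without the cassette received doxycycline, so the drug and the factors cannot be told apart. The 12 libraries of poly(A) RNA were compared to ask how B12 changes transcription early in reprogramming, before colonies form.

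Toll-like receptors bind conserved microbial molecules at the cell surface or inside endosomes. Most of them signal through the adaptor MyD88 to NF-κB, which switches on cytokine genes such as Tnf and Il1b and raises Nlrp3. The NLRP3 inflammasome activates caspase-1, which cuts pro-IL-1β into its secreted form, whereas the antagonist encoded by Il1rn blocks its receptor and IL-10 signalling restrains the whole response. Macrophages are known for all of these genes, and fibroblasts can express some of them, Tlr4 among them.

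Library totals ranged from 56971244 to 79236795 counted read pairs, and 24880 to 25728 genes had at least 1 pair. Of the 4 cassette genes, Pou5f1 and Sox2 followed the labels: with OSKM against MEF without B12, Pou5f1 (Oct4) was 5.65 ± 0.212 (SE) higher on the log2 scale and Sox2 was 4.19 ± 0.414 higher, with adjusted p of 5.95e-07 and 0.00287 in edgeR's quasi-likelihood test. Myc and Klf4, which the fibroblasts also expressed without doxycycline, had log2 fold changes of 0.94 ± 0.239 and -0.16 ± 0.0450 and did not pass (adjusted p = 0.159 and 0.163). The fibroblast label also held, since 10 fibroblast markers, collagens among them, together took 88192 to 141825 CPM (counted pairs per 1000000 of the normalized library total). The same libraries held 15 of 15 macrophage markers, whose summed level was 1431 to 2677 CPM in MEF, 2173 to 3534 in MEF with B12, 1432 to 2418 in OSKM and 2211 to 2809 in OSKM with B12. None of these 15 was at 0 in any library. The 6 neutrophil markers reached at most 0.138 CPM in sum and lymphocyte markers at most 0.0517 CPM, with the defining neutrophil gene S100a9 and the T-cell gene Cd3e at 0 in all 12 libraries. In bulk RNA, fewer cells of a type and less RNA per cell cannot be told apart.

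Per length, as CPM divided by the exon length in units of 1000 bases (RPKM), Cd14 was the most abundant of the 10 genes, with a level of 11.3 ± 2.42 RPKM (SD, n = 12 libraries of all groups). Cd14 encodes a surface protein that hands bacterial lipopolysaccharide to Tlr4. Tlr2, a surface receptor for bacterial lipoproteins, was at 8.53 ± 1.16 RPKM, Tlr13, an endosomal receptor for bacterial ribosomal RNA, at 5.84 ± 1.76 RPKM, and Il1rn at 5.05 ± 1.19 RPKM. Tlr4, the receptor for lipopolysaccharide, was at 4.37 ± 0.723 RPKM and Tlr7, an endosomal receptor for single-stranded RNA, at 4.22 ± 1.31 RPKM. Tnf, Il10ra and Nlrp3 were lower, at 1.88 ± 1.19, 1.36 ± 0.304 and 0.604 ± 0.313 RPKM. The ranges over all libraries overlapped for each pair of neighbours in this order. Within a library, however, Cd14 lay above Tlr2, Tlr2 above Tlr13, Tlr7 above Tnf and Il10ra above Nlrp3 in 12 of 12 libraries. The other neighbours changed places: Tlr13 was above Il1rn in 8 of 12, Il1rn above Tlr4 in 9, Tlr4 above Tlr7 in 8 and Tnf above Il10ra in 7, so those did not differ beyond their spread. The order also depended on the gene model: with the length of the longest transcript in place of all exons, Il1rn moved to 10.9 RPKM and second place, and Tlr4 to 5.96 RPKM.

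**Figure D1:**
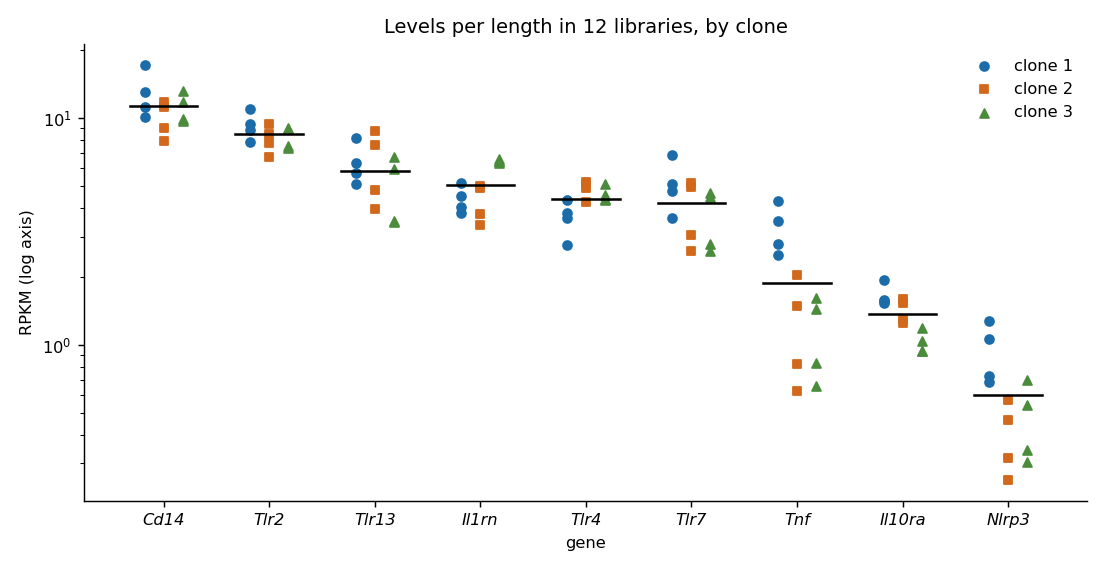
Level of each of the 9 measurable genes in RPKM on a log axis, by gene, for the 12 libraries, coloured and shaped by clone, with the mean over libraries as a line. Tnf and Nlrp3 lie highest in clone 1, at up to 4.31 and 1.28 RPKM, and Il1rn lies highest in clone 3, at up to 6.61 RPKM.

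Il1b was the exception. It had 17 counted pairs over the 12 libraries: 7 in MEF with B12 of clone 1, 6 in OSKM with B12 of clone 1, 1 each in the MEF library of clone 1 and in the OSKM libraries of clones 1, 2 and 3, and 0 in the other 6. The floor of 3 counts corresponded to 0.0385 to 0.0520 CPM, and only the 2 B12 libraries of clone 1 were above it. Il1b did not pass the filter on low counts, so 9 of the 10 genes were tested. It shares exon sequence on the opposite strand with Il1bos, and pairs were counted by strand.

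For the genes that moved together below, the sequence before the start site is shown, since PU.1, C/EBP, AP-1, NF-κB and interferon-regulated factors are the textbook regulators of macrophage and inflammatory promoters. RefSeq windows on GRCm38.p6 were on hand for 6 of the 10 genes. The windows of Tlr13, Tnf and Nlrp3, whose levels rose most with B12, and of Il1rn, which did not pass the test, are given 5′ to 3′ on the strand of the gene, from 250 bases before the RefSeq start to 20 bases into the first annotated exon. They lie at chrX:106143025-106143223 (+ strand), chr17:35201988-35202257 (− strand), chr11:59542436-59542705 (+ strand, the first of the windows of Nlrp3) and chr2:24336610-24336872 (+ strand, the first of the windows of Il1rn). Capitals mark exact matches to a motif on either strand.
Tlr13: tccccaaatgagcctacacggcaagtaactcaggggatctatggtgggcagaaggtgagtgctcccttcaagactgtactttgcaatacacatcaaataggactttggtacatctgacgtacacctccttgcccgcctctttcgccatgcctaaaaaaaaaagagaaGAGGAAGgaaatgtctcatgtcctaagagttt
Tnf: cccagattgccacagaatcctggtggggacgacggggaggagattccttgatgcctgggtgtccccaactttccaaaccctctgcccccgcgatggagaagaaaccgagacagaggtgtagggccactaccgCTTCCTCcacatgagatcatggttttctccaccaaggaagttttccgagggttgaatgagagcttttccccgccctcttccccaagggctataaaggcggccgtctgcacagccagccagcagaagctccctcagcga
Nlrp3: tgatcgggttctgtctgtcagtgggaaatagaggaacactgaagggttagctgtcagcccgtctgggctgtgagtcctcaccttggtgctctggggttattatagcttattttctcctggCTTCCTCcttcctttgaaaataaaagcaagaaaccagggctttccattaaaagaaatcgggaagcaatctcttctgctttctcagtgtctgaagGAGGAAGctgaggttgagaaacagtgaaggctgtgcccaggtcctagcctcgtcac
Il1rn: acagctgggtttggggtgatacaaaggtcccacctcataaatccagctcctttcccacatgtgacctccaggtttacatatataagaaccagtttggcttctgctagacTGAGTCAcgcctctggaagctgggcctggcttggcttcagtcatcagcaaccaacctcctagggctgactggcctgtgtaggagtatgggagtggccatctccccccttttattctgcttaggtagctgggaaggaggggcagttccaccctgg

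The motif of PU.1, the factor that sets up macrophage identity, was searched as GAGGAAG. It lay at -83 in Tlr13 (first base of the match, counted from the start site at 1) and at -118 on the other strand in Tnf. In the first window of Nlrp3 it lay at -130 on the other strand and at -36. It is present in 13.6% of all 32851 RefSeq windows of 300 bases. The C/EBP motif TTGCNNAA matched in Tlr13 at 1 on the other strand, past the printed stretch (10.8% of windows), and the AP-1 motif TGANTCA, which reads alike on both strands, matched in Il1rn at -141 (7.81% of windows). The NF-κB consensus (1.47% of windows) and the interferon-stimulated response element (3.44% of windows) matched in none of the 9 windows searched. The windows of Tlr2 and Il1b held none of the motifs in the letters searched. The second window of Nlrp3 (chr11:59541319-59541587), which lies at the annotated start of the gene, also held none. Nor did the other windows of Il1rn. The motifs do not overlap one another in these windows, and a match is a description of the letters only.

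B12 went with higher levels of most of these genes in both states. Averaged over MEF and OSKM, 6 of the 9 tested genes rose (adjusted p under 0.05 over all genes, edgeR's quasi-likelihood test with clone as a block) and 0 fell, where 3.46% of the 19174 genes tested rose and 0.381% fell. The 6 were Tnf, Nlrp3, Tlr13, Tlr7, Cd14 and Tlr2. The gene list was chosen with earlier results of these data known, so this count is a description. The median log2 fold change of the 9 was 0.35, against -0.01 over all genes. The fitted fold change was above 0 for 9 of 9, as for 44.9% of all genes, with Tlr4, Il10ra and Il1rn short of the threshold.

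Tnf, the early inflammatory cytokine, had the largest average difference among the 9. Its level was 4.57, 1.34 and 1.36 CPM in MEF of clones 1, 2 and 3, 7.07, 3.32 and 2.65 CPM in MEF with B12, 4.08, 1.02 and 1.08 CPM in OSKM, and 5.73, 2.43 and 2.35 CPM in OSKM with B12. Each clone was higher with B12 in both states, but the groups overlapped, because clone 1 without B12 lay above clones 2 and 3 with it. The average log2 fold change was 0.91 ± 0.119 (SE), a fold of 1.88, with an adjusted p of 0.00135 in edgeR.

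Nlrp3, the sensor that nucleates an inflammasome, was at 2.96, 1.03 and 1.23 CPM in MEF of clones 1, 2 and 3, 5.17, 2.32 and 2.82 CPM in MEF with B12, 2.77, 1.28 and 1.398 CPM in OSKM, and 4.31, 1.88 and 2.20 CPM in OSKM with B12. Clone 1 was again highest in every group, and the groups overlapped. Its average log2 fold change was 0.83 ± 0.0851 (adjusted p = 0.00042, edgeR). The difference was 1.03 ± 0.120 in MEF and 0.62 ± 0.120 in OSKM. The test of the difference between states gave -0.42 ± 0.170 with an unadjusted p of 0.0327 and an adjusted p of 1 in edgeR.

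Tlr13 and Tlr7, the endosomal receptors of this set, moved by similar amounts. Tlr13 was at 24.7, 20.7 and 15.1 CPM in MEF of clones 1, 2 and 3, 35.1, 37.6 and 28.9 CPM in MEF with B12, 21.9, 17.0 and 14.99 CPM in OSKM, and 27.3, 32.6 and 25.5 CPM in OSKM with B12. All 3 libraries with B12 lay above the 3 without it in each state. The average log2 fold change was 0.72 ± 0.0782 (adjusted p = 0.000564, edgeR), and it was smallest in clone 1, at 0.51 in MEF and 0.32 in OSKM, against 0.77 to 0.94 in the other clones.

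Tlr7 was at 19.4, 12.5 and 10.6 CPM in MEF of clones 1, 2 and 3, 28.1, 21.0 and 19.0 CPM in MEF with B12, 14.8, 10.6 and 11.3 CPM in OSKM, and 20.9, 20.3 and 18.3 CPM in OSKM with B12. The groups did not overlap in OSKM. In MEF, clone 1 without B12 lay just above clone 3 with it. The average log2 fold change was 0.71 ± 0.0792, a fold of 1.63 (adjusted p = 0.000656, edgeR).

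The surface receptors of this set had smaller fold changes. Tlr2 was at 26.7, 23.3 and 22.6 CPM in MEF of clones 1, 2 and 3, 33.0, 28.3 and 26.8 CPM in MEF with B12, 23.7, 20.4 and 22.2 CPM in OSKM, and 28.5, 25.6 and 27.3 CPM in OSKM with B12. The groups did not overlap in either state, and the 6 within-clone log2 differences lay between 0.25 and 0.33. Its average log2 fold change was 0.29 ± 0.0395 (adjusted p = 0.00179, edgeR).

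Cd14 was at 22.7, 15.7 and 16.8 CPM in MEF of clones 1, 2 and 3, 29.7, 20.3 and 22.8 CPM in MEF with B12, 17.4, 13.7 and 17.1 CPM in OSKM, and 19.4, 19.3 and 20.5 CPM in OSKM with B12. The groups overlapped in MEF and not in OSKM. The average log2 fold change was 0.35 ± 0.0735 (adjusted p = 0.0217, edgeR). Within 1 state it did not pass the test, with adjusted p of 0.112 in MEF and 0.326 in OSKM. The call in MEF depended on the setting, since Cd14 passed there in DESeq2 (adjusted p = 0.0166), with no filter on low counts (0.0178), in a fit to the MEF libraries alone (0.00137) and without clone 1 (0.0493).

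Tlr4, the receptor that Cd14 serves, was at 20.1, 27.3 and 24.1 CPM in MEF of clones 1, 2 and 3, 24.1, 29.2 and 28.3 CPM in MEF with B12, 15.3, 23.8 and 24.4 CPM in OSKM, and 21.1, 28.6 and 25.4 CPM in OSKM with B12. Here clone 1 was lowest in every group, the reverse of the order for Tnf and Nlrp3. With B12, Tlr4 averaged 0.23 ± 0.0558 more on the log2 scale, just short of the threshold (adjusted p = 0.0509, edgeR). DESeq2 on the same genes gave 0.22 with an adjusted p of 0.0137, and in edgeR Tlr4 also passed with library totals in place of TMM scaling (adjusted p = 0.0248), with no filter on low counts (0.0179), with a stricter filter (0.0477) and without the OSKM library of clone 1 (0.0433). The call for Tlr4 thus depended on the tool, the scaling, the filter and the libraries.

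Like Tlr4, the members that restrain the response, Il10ra and Il1rn, did not pass the test. Il10ra, the ligand-binding chain of the IL-10 receptor, was at 5.46, 4.36 and 3.30 CPM in MEF of clones 1, 2 and 3, 6.72, 5.58 and 3.63 CPM in MEF with B12, 5.33, 4.53 and 3.28 CPM in OSKM, and 5.50, 5.37 and 4.15 CPM in OSKM with B12. Its clones kept 1 order in all groups, clone 1 above clone 2 above clone 3. The log2 fold change of Il10ra with B12 was 0.24 ± 0.0705, close to the 0.23 of Tlr4 (unadjusted p = 0.00605, adjusted p = 0.105 for Il10ra, edgeR). Il1rn was at 24.99, 18.6 and 35.9 CPM in MEF, 28.7, 20.9 and 36.6 CPM in MEF with B12, 21.2, 27.3 and 35.1 CPM in OSKM, and 22.5, 27.8 and 35.7 CPM in OSKM with B12. Clone 3 was highest in every group. The log2 fold change of Il1rn with B12 was 0.09 ± 0.102 (adjusted p = 0.736, edgeR), with no called difference in either state.

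**Figure D2:**
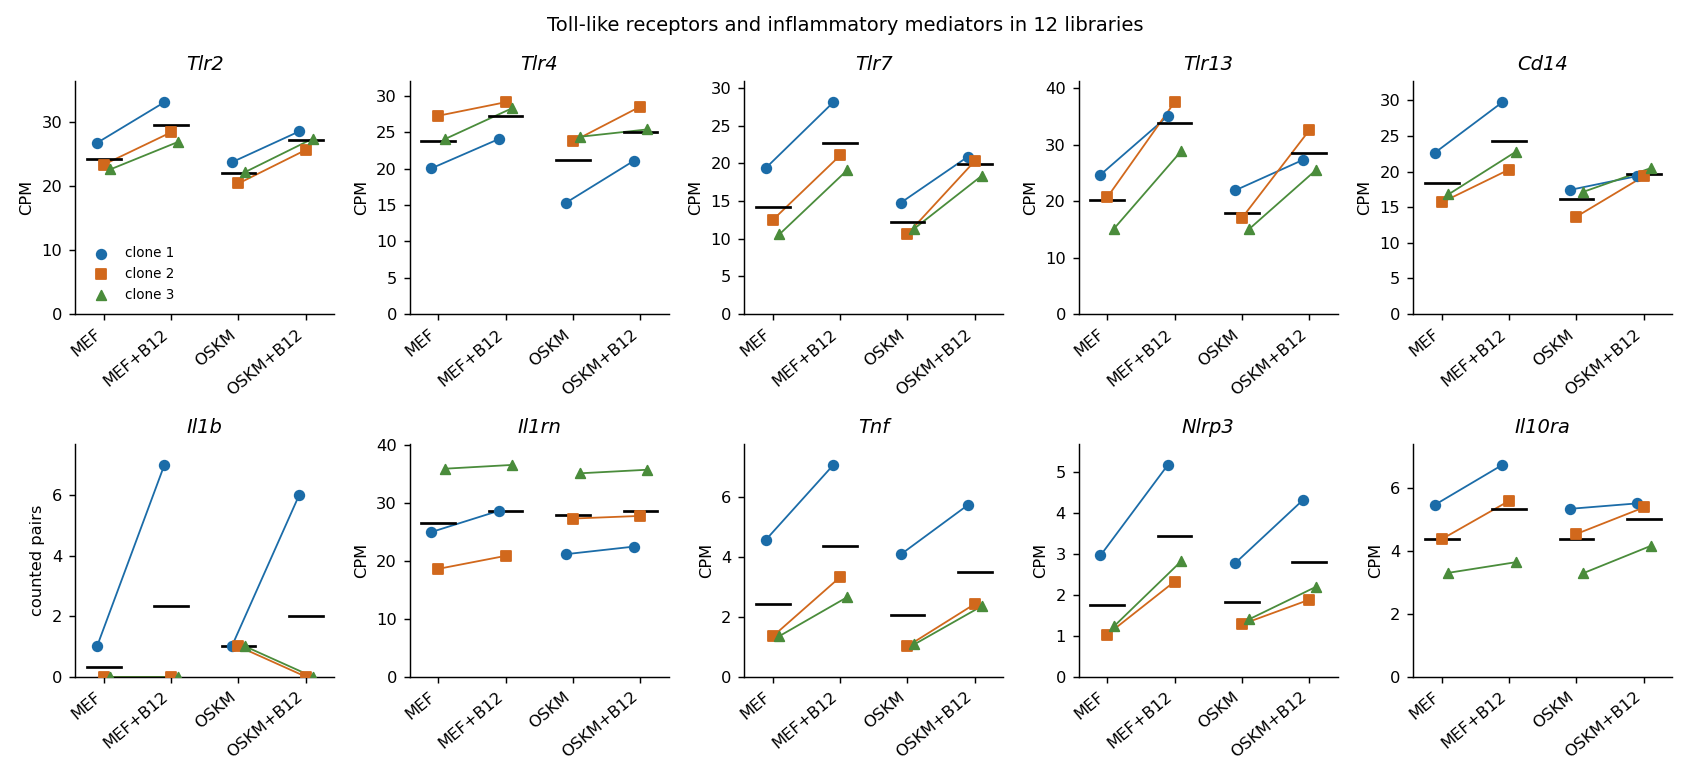
Level of each gene in CPM (counted pairs for Il1b) in the 4 groups of 3 libraries, with points joined within a clone between the libraries without and with B12, and the group mean as a black bar. Lines rise from no B12 to B12 in most panels, as from 20.7 to 37.6 CPM for Tlr13 in MEF of clone 2, while the Il1rn lines are nearly flat, at 35.9 and 36.6 CPM in MEF of clone 3.

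In each state alone, the same 5 genes rose with B12: Tnf, Nlrp3, Tlr13, Tlr7 and Tlr2. In MEF this was 5 of 9, against 1.37% of all genes, and in OSKM 5 of 9, against 1.05% of all genes. Log2 fold changes in OSKM were 0.89 for Tnf, 0.71 for Tlr7, 0.67 for Tlr13 and 0.30 for Tlr2, with adjusted p of 0.0352, 0.0154, 0.0183 and 0.0324 in edgeR. In MEF they were 0.94, 0.70, 0.76 and 0.28, with adjusted p of 0.0206, 0.0139, 0.00988 and 0.0352. Groups did not overlap for 2 genes in MEF (Tlr2 and Tlr13), where 5.85% of all genes were higher without overlap, and for 4 in OSKM (Tlr2, Tlr7, Tlr13 and Cd14), against 4.80% of all genes. For the interaction of B12 and induction, 0 of the 9 genes passed in edgeR and 0 in DESeq2, with 1 gene (Nlrp3) at an unadjusted p under 0.05, where 0% of all genes passed and 1.42% had an unadjusted p under 0.05.

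These calls rested on the pairing by clone and on clone 2. They did so for all genes: without clone 2, 0.176% of all genes passed in the average and 0% in MEF and in OSKM, and with no block for clone 0.469% passed in the average and 0% in either state. Without clone 2, 0 of the 9 genes passed in the average, in MEF and in OSKM. The average log2 fold changes without it were 0.77 for Tnf, 0.81 for Nlrp3, 0.63 for Tlr13, 0.64 for Tlr7 and 0.28 for Tlr2, with adjusted p of 0.0769, 0.0567, 0.0680, 0.0724 and 0.121 in edgeR. Without clone 3, 0 of the 9 passed within MEF or within OSKM, where 0.151% and 0.0676% of all genes did, and Cd14 no longer passed in the average (adjusted p = 0.117). Within OSKM, 3 of the 9 passed without clone 1 (1.17% of all genes), 2 without its OSKM library (0.718%) and 1, Tlr7, in a fit to the OSKM libraries alone (0.583%). A fit to the MEF libraries alone gave 7 of the 9 within MEF (4.58% of all genes), with Cd14 and Tlr4 (adjusted p = 0.0480) added to the 5. With no block for clone, 0 of the 9 passed in any of the 3 comparisons. Without clone 1, which leaves the clones whose library titles carry 1 year, the same 6 genes passed in the average, with log2 fold changes of 1.16 for Tnf, 0.90 for Nlrp3, 0.87 for Tlr13, 0.81 for Tlr7, 0.39 for Cd14 and 0.29 for Tlr2. The titles of clone 1 carry the next year, and with 1 clone in it, that year allows no comparison of its own.

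**Figure D3:**
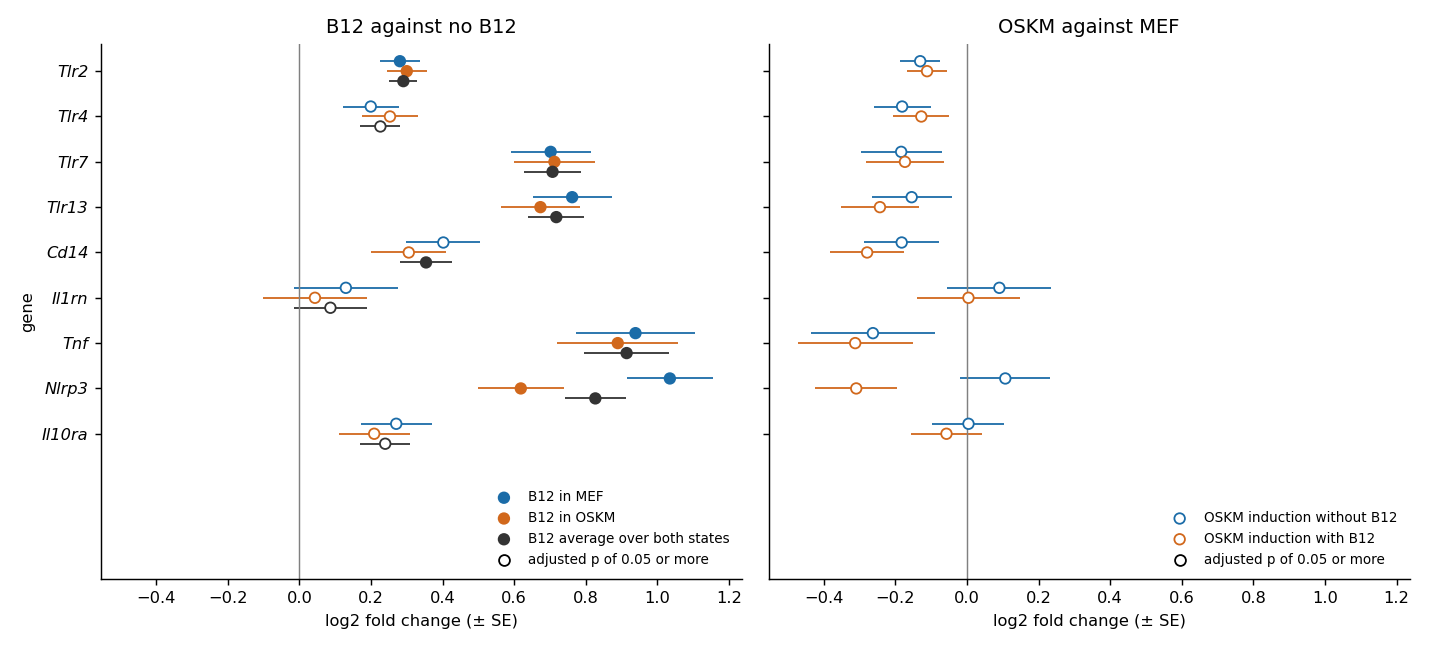
Fitted log2 fold change (± SE, from 12 libraries) of the 9 tested genes for B12 against no B12 (left) and for OSKM against MEF (right). Filled points passed at an adjusted p under 0.05: 6 genes in the B12 average, 5 in each state, and 0 for induction, where log2 fold changes lie between -0.31 and 0.11.

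Induction gave no called difference among these genes. Without B12, 0 of the 9 genes passed in edgeR and 0 in DESeq2, with 2 genes at an unadjusted p under 0.05 (Tlr2, log2 fold change -0.13 ± 0.0562, and Tlr4, -0.18 ± 0.0793), where 0.0730% of all genes passed and 19.0% had an unadjusted p under 0.05. With B12, 0 of 9 passed in either tool, with 3 genes at an unadjusted p under 0.05 (Tlr13 at -0.24 ± 0.108, Cd14 at -0.28 ± 0.103 and Nlrp3 at -0.31 ± 0.115), where 0.104% of all genes passed and 14.9% had an unadjusted p under 0.05. The median log2 fold change of the 9 was -0.15 without B12 and -0.17 with it, against -0.01 and 0.00 over all genes. Tlr13 and Tnf were lower in OSKM in 6 of 6 comparisons within a clone, as were 8.26% of all genes. The comparisons of B12 and of induction share libraries, so their values are not separate evidence.

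Il1rn stood apart in how its clones responded to doxycycline. Without B12 its log2 difference, OSKM minus MEF, was -0.24 in clone 1, 0.55 in clone 2 and -0.03 in clone 3, and with B12 it was -0.35, 0.41 and -0.03. The test of a difference between clones in the response to induction gave an adjusted p of 0.00543 in edgeR, and Il1rn was the 1 gene of the 9 to pass, where 2.15% of all genes passed. It did not pass without clone 2 (adjusted p = 0.289) or without clone 3 (adjusted p = 0.338). Cd14 followed with an unadjusted p of 0.00745 and an adjusted p of 0.142. For the response to B12, 0 of the 9 genes and 0 of all genes differed between clones in edgeR, DESeq2 also gave 0 of the 9, and 2 genes had an unadjusted p under 0.05, Tlr13 (0.00419) and Tnf (0.0177), where 1.18% of all genes did.

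Levels differed between the clones for 9 of 9 genes, where 37.8% of all genes passed that test. Clone 1 was highest for Tnf, with a mean of 5.36 CPM over its 4 libraries against 2.03 and 1.86 CPM in clones 2 and 3, and for Nlrp3, at 3.80 against 1.63 and 1.91 CPM. For both genes each library of clone 1 lay above each library of clone 2. Clone 1 was lowest for Tlr4, at 20.1 against 27.2 and 25.6 CPM, and clone 3 highest for Il1rn, at 35.8 against 24.3 and 23.6 CPM. Without clone 1, 3 genes passed (Tlr13, Il1rn and Il10ra), and the clone and the title year cannot be told apart.

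Macrophage markers rose with B12 alongside these genes. Of the 15 markers, 12 rose with B12 in the average, 10 in MEF and 8 in OSKM, with 0 lower. Over all genes, 3.46% rose in the average, 1.37% in MEF and 1.05% in OSKM. The median log2 fold change of the markers was 0.57. They were chosen as cell-type genes and not from the receptors above, but with earlier results of these data known. The markers with the largest changes were Fcgr1, a receptor for immunoglobulin G, at 0.95, the mannose receptor gene Mrc1 at 0.86, Csf1r, the receptor that macrophages need for survival, at 0.71, and the lysosomal gene Cd68 at 0.67. The 3 that did not pass were Aif1 at 0.42, Mertk, a receptor for the uptake of dying cells, at 0.03, and the chemokine receptor gene Cx3cr1 at -0.45, with adjusted p of 0.127, 0.816 and 0.296 in edgeR. The summed level of the markers rose on the log2 scale by 0.541 on average over the 6 comparisons within a clone and state, with a range from 0.216 to 0.759. For 10 fibroblast markers 0 passed in edgeR, with 4 at an unadjusted p under 0.05 and a median of -0.11. The part of the macrophage markers in the differences of the receptors and mediators was not tested.

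Each gene was then set against the summed markers, library by library, as a description. Lyz2 weighed most in this sum, with a mean of 1063 of 1990 CPM in MEF. Among single markers, Fcgr1 had a larger average fold change with B12 than Tnf, and Fcgr1 and Mrc1 larger ones than Tlr13 and Tlr7. A higher ratio is thus a rise beyond the sum, not beyond each marker. The log2 ratio of Tnf was higher with B12 in 6 of 6 comparisons within a clone and state, by 0.41 on average (range 0.22 to 0.65). The ratios of Tlr13 and Tlr7 were higher by 0.18 and 0.17 on average, each in 6 of 6 comparisons, while that of Nlrp3 was higher by 0.50 on average in MEF, in 3 of 3 clones, and by 0.07 in OSKM, where the clones differed in sign (0.41, -0.21 and 0.01). The other ratios were lower with B12, with mean differences of -0.19 for Cd14, -0.25 for Tlr2, -0.30 for Il10ra, -0.31 for Tlr4 and -0.45 for Il1rn. They were lower in 6 of 6 comparisons for Cd14, Il10ra and Il1rn and in 5 of 6 for Tlr2 and Tlr4, the exception for both being OSKM of clone 1. With the geometric mean of the markers in place of their sum, Cd14 was higher in 1 of 6, and the counts for the other genes were as given.

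**Figure D4:**
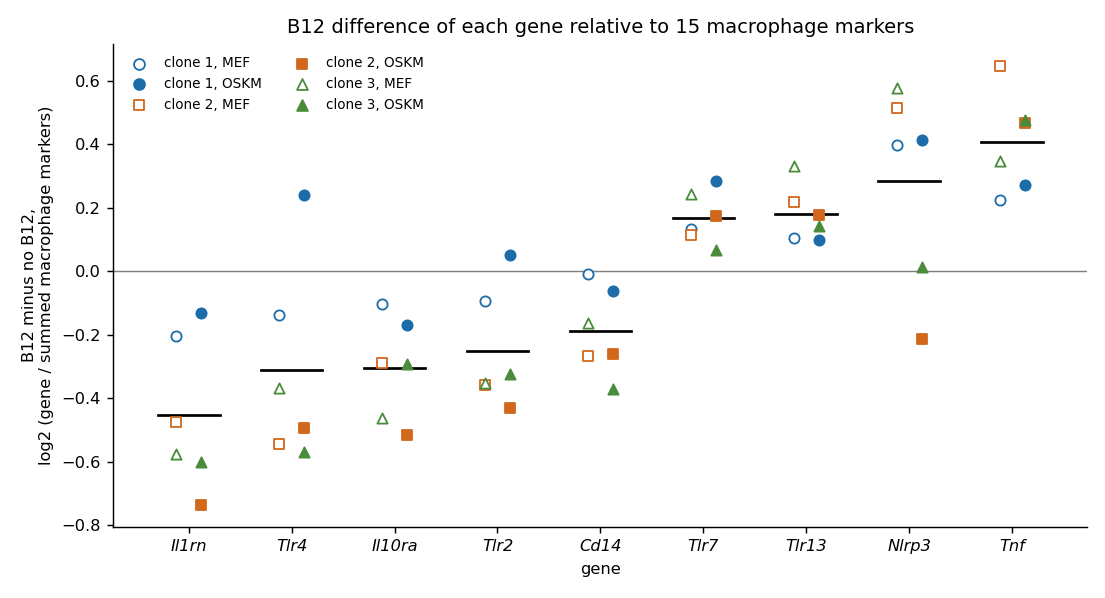
Difference with B12 in the log2 ratio of each gene to the summed level of 15 macrophage markers, by gene, for 3 clones in MEF (open) and OSKM (filled), with the mean as a line. Tnf, Tlr13 and Tlr7 lie above 0 in 6 of 6 points, and Il1rn, Il10ra and Cd14 lie below 0 in 6 of 6.

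Over the 12 libraries, the levels of Tlr7, Tlr2, Cd14 and Tlr13 followed the mean pattern of the 9 genes closely, with Pearson's r of 0.99, 0.97, 0.93 and 0.90 between log2 CPM and that mean, which includes the gene itself. The values for Nlrp3, Tnf and Il10ra were 0.86, 0.85 and 0.66. Tlr4 and Il1rn did not follow it, with r of 0.15 and -0.00. The 5 other genes most like the mean pattern were Pik3cd (r = 0.986), a phosphoinositide kinase subunit of leukocytes, Hcls1 (0.986), a cytoskeletal adaptor of blood cells, the integrin gene Itga4 (0.981), the kinase gene Syk (0.979) and Csf1r (0.978). The 12 points share 3 embryos and both treatments, so these are descriptions.

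The wider pathway was read by the same fit from fixed lists, also chosen with earlier results of these data known. Over all genes, 3.46% rose with B12 in the average and 0.381% fell. Among the other Toll-like receptors, 2 of 6 tested genes rose with B12 and 0 fell: Tlr1, the partner of Tlr2 for lipoproteins, by 0.62 ± 0.0638 on the log2 scale, and Tlr8, an endosomal receptor for RNA, by 0.51 ± 0.0847. Tlr6, the other partner of Tlr2, differed by 0.24 on the log2 scale (adjusted p = 0.107, edgeR), and Tlr11 and Tlr12 were too low to test. Tlr3 and Tlr9, which are also endosomal, differed by 0.13 and 0.07, and the surface receptor Tlr5 by 0.01 (adjusted p = 0.161, 0.861 and 0.982, edgeR). Over the wider family the size of the change thus did not follow location. The median of the 6 tested receptors was 0.19, against -0.01 over all genes.

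Among 27 co-receptors, chaperones and adaptors, 3 rose and 0 fell, where 3.46% of all genes rose, with a median of 0.02. They were Cd180, a relative of Tlr4 on the cell surface (0.97 ± 0.0962), its partner Ly86 (0.43 ± 0.0869), and Irf5, a transcription factor that acts below the endosomal receptors (0.80 ± 0.0935). Cd180 went from 20.02 ± 4.98 to 40.02 ± 4.33 CPM in MEF and from 15.8 ± 3.55 to 29.6 ± 1.63 CPM in OSKM (SD, n = 3). The shared adaptor Myd88 had a log2 fold change of 0.14 ± 0.0352 (adjusted p = 0.0641, edgeR).

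In the inflammasome list 4 of 9 tested genes rose and 0 fell, where 3.46% of all genes rose, with a median of 0.36. Casp1, the protease that matures IL-1β, rose by 0.78 ± 0.0720, the DNA sensor Aim2 by 0.62 ± 0.137, the sensor Nlrc4 by 0.51 ± 0.109 and the adaptor Pycard by 0.36 ± 0.0841. Casp1 was the 1 gene of this list to pass also within MEF (0.74) and within OSKM (0.83), where 1.37% and 1.05% of all genes rose. Mefv was too low to test.

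The transcription factors and cytokine pathways around these genes showed few calls. For the B12 average, 3.46% of all genes rose past the threshold and 15.5% had an unadjusted p under 0.05. Of 16 NF-κB factors and feedback targets 0 passed in edgeR, with 4 at an unadjusted p under 0.05 and a median of 0.05, and the most abundant, Rela and Nfkb1, had log2 fold changes of -0.03 and 0.02. Of 9 IL-1 family genes and receptors 0 passed, with 1 at an unadjusted p under 0.05 and a median of -0.02, and the receptor gene Il1r1 and the alarmin gene Il33, the most abundant, were at -0.02 and 0.01. Of 9 genes of the TNF pathway 0 passed, with 1 at an unadjusted p under 0.05 and a median of 0.07, and Tnfrsf1a, the main TNF receptor, and Adam17, the protease that releases TNF, were at -0.00 and 0.05. In the IL-10 pathway 1 of 7 rose: Hmox1, a haem-degrading enzyme induced by oxidative stress and by IL-10, by 0.75 ± 0.0431 (adjusted p = 2.62e-05, edgeR), from 110.0 ± 13.8 to 187.7 ± 34.1 CPM in MEF (SD, n = 3).

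Of 8 tested inflammatory output genes 1 rose, where 3.46% of all genes did. This was Osm, a cytokine of the IL-6 family, by 1.13 ± 0.210 on the log2 scale (adjusted p = 0.0109, edgeR). Its mean was 0.728 CPM in MEF and 1.55 CPM in MEF with B12. Osm lay under the abundance limit for naming and was picked after its values were seen. Il6, Nos2 and Csf3 were tested at low levels and did not pass, and Il12a and Il12b were too low to test. Saa3, Ptgs2, Lcn2 and Acod1 did not pass either. Saa3, the most abundant of the list, was at 91.4 ± 65.3 and 93.1 ± 59.3 CPM in MEF without and with B12. In OSKM it was at 56.3 ± 29.9 and 68.1 ± 34.7 CPM (SD, n = 3). No gene of any of these lists fell with B12 in the average, and 0 genes of these lists passed for induction in edgeR. For induction without B12, 19.0% of all genes had an unadjusted p under 0.05. So did 4 of 9 IL-1 family genes (median log2 fold change -0.28), 3 of 8 output genes (-0.29) and 3 of 7 IL-10 pathway genes (-0.07). The other lists had 1 of 6 Toll-like receptors, 6 of 27 co-receptors and adaptors, 3 of 16 NF-κB genes, 2 of 9 inflammasome genes and 1 of 9 TNF pathway genes. With B12, where 14.9% of all genes did, the lists had 1 to 5 genes each.

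**Figure D5:**
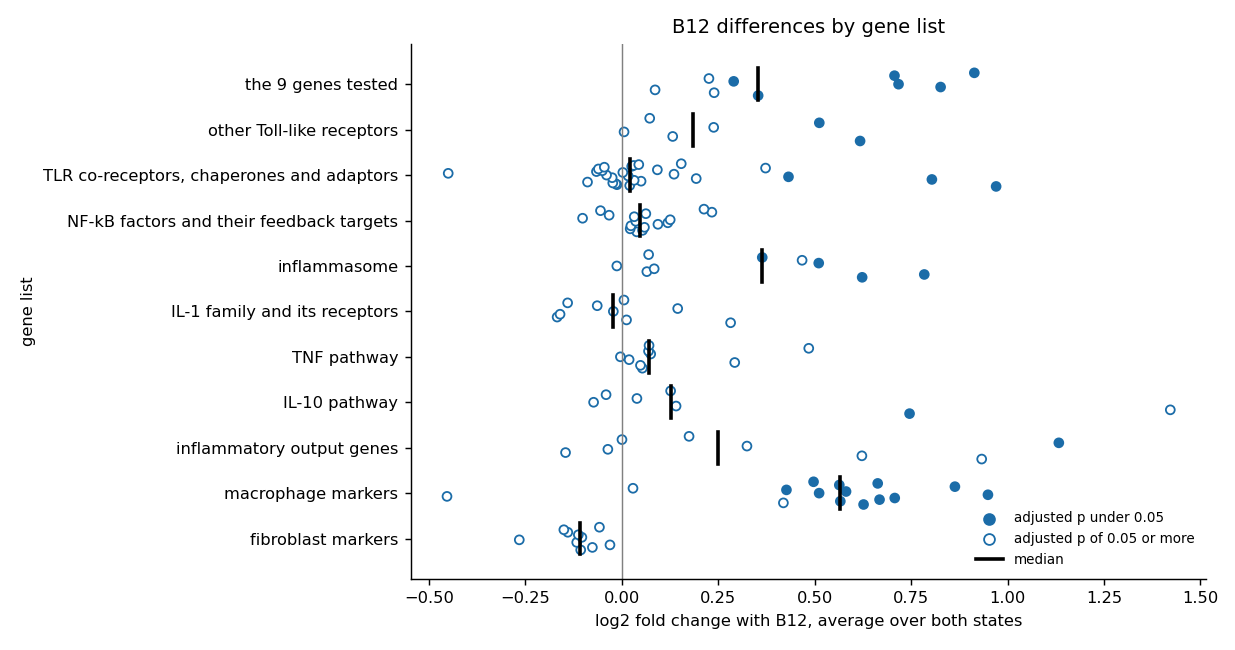
Log2 fold change with B12, averaged over MEF and OSKM, for each tested gene of the 9 and of each list, filled where the adjusted p was under 0.05, with the median of the list as a bar. Filled points number 6 of 9 among the receptors and mediators, 4 of 9 in the inflammasome list, 12 of 15 among macrophage markers and 0 among NF-κB, IL-1, TNF and fibroblast genes.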

How the data were processed

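The deposited values were raw counts per gene. Per the labels and the study's methods, the authors selected poly(A) RNA, made directional libraries, mapped read pairs to mm10 (GRCm38) with STAR 2.5.2, assigned them to genes with featureCounts set to the reverse strand, and summed the flow cells of a library. How reads matching several places were treated is not stated beyond these settings.

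Symbols, coordinates and exon lengths came from GENCODE M21 on the same build, and 55480 of 55573 identifiers matched. The 10 genes and all lists were chosen with earlier results of these data known. Counts were analysed in R 4.3.3 with edgeR 4.0.16: filterByExpr by group (19174 genes kept), TMM factors (0.934 to 1.06), 1 quasi-likelihood fit of clone and group over 12 libraries (biological coefficient of variation 8.04%), contrasts tested with Benjamini-Hochberg adjustment over all genes at a threshold of 0.05. The fit blocked on clone, since all 4 groups were grown from each embryo. Deviations from group means correlated at 0.270 to 0.687 within clones (18 pairs) and at most 0.170 between them. Replicates are embryos, and 0 pairs of libraries were identical. CPM and RPKM used TMM-scaled totals, and log2 CPM a prior count of 2. Scripts were tested on simulated data. DESeq2 1.42.0, other scalings, filters and left-out libraries were alternatives. The OSKM library of clone 1 was among those left out, because earlier work with these data had singled it out. Totals limit precision by counting error only.

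Named genes were all 10 genes, the genes of each list that passed (up to 4 with the largest change and a mean log2 CPM of at least 0, or the 2 most abundant where none passed), and the 5 most similar patterns. Others named with values (Pou5f1, Sox2, Myc, Klf4, Tlr3, Tlr5, Tlr6, Tlr9, Aif1, Mertk, Cx3cr1, Myd88, Osm, Saa3, Cd3e, S100a9) were chosen after their values were seen. No protein sequences were used here.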

Additional observations from a re-analysis of the deposited data

Results flagged for a closer look

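The response of Il1rn to induction differed between clones (adjusted p = 0.00543, edgeR's quasi-likelihood test of clone by state). Il1rn was lower in OSKM than in MEF in clone 1, with log2 differences of -0.24 without B12 and -0.35 with it, and higher in clone 2, at 0.55 and 0.41, while clone 3 stayed at -0.03 in both. The adjusted p ranged from 2.84e-06 to 0.00954 in the 7 alternatives that kept clones 2 and 3, and it was 0.289 without clone 2 and 0.338 without clone 3.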

How the results depend on the processing

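Every gene called with B12 kept its direction in every alternative run. DESeq2, its size factors, library totals and both other filters left 6 or 7 of the 9 genes past the threshold in the B12 average, 5 in OSKM and 5 or 6 in MEF. The clone block, which pairs the libraries of an embryo, decided the calls: with no block, 0 genes passed in the average, in OSKM and in MEF. Leaving out 1 clone or the OSKM library of clone 1 gave 0 to 7 genes in the average, 0 to 3 in OSKM and 0 to 5 in MEF, the 0 being without clone 2 in all 3 and without clone 3 in OSKM and MEF. A fit to only the OSKM libraries left 1 gene, Tlr7, and a fit to only the MEF libraries gave 7. Over all genes, 0.176% passed in the average without clone 2 and 0.469% with no block, and 0% in either state in both. For the response to induction by clone, 2 genes passed with no filter on low counts (Cd14 and Il1rn), and left-out libraries gave 0 to 2. For levels between clones, left-out libraries gave 3 to 9 genes, the 3 being without clone 1. Leaving out a clone also removes samples, and the other causes were not tested. Signs turned only among values that did not pass. With 1 clone or library left out, Il1rn lay between -0.073 and 0.063 for B12 in OSKM, between -0.12 and 0.25 for induction without B12 and between -0.19 and 0.18 for induction with B12 (-0.0029 with no block), and Il10ra lay between -0.013 and 0.028 for induction without B12 and between -0.18 and 0.059 with it. The interaction then lay between -0.0022 and 0.042 for Tlr2, -0.048 and 0.17 for Tlr4, -0.083 and 0.082 for Tlr7 (-0.0036 with library totals), -0.17 and 0.016 for Tlr13, -0.15 and 0.20 for Tnf, and -0.18 and 0.031 for Il10ra. Tests of Tnf and Nlrp3 rest on as few as 59 and 65 pairs in a library, and depth allows no comparison for Il1b.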

Other observations

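Il10, the ligand of the receptor chain Il10ra, was near the floor of 3 counts and was looked at after its values were seen. Its level was 0.0547 ± 0.0491 CPM in MEF, 0.236 ± 0.169 CPM in MEF with B12, 0.161 ± 0.0739 CPM in OSKM and 0.290 ± 0.141 CPM in OSKM with B12 (SD, n = 3), with an adjusted p of 0.0672 for the B12 average in edgeR.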
